A study of Mus musculus with 4 samples.

Results

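GABA is the main inhibitory transmitter of the olfactory bulb, and 7 genes of its life cycle were followed in bulbs that lack the zinc finger transcription factors Sp8 and Sp9 in the interneuron lineage. The genes were taken by symbol from the 20032 genes of the table: Gad1 and Gad2 for synthesis, Slc32a1 for vesicular loading, Slc6a11 and Slc6a13 for uptake, and Abat and Aldh5a1 for breakdown. All 7 were in the table, and all 7 passed the filter on low values (averaging 1 FPKM or more), which left 13434 genes. FPKM scales the fragments of a gene by transcript length and by the mapped fragments of the library, so levels can be compared between genes. The choice of genes used no measured value, but it was made with earlier results of these data known.

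The 4 libraries were made from total RNA of whole bulbs of mice at postnatal day 11. The 2 control libraries came from littermates without Cre, and the labels do not say whether these carried floxed alleles. The 2 DCKO libraries (double conditional knockout) carried Dlx5/6-CIE, Sp8 Flox/Flox and Sp9 Flox/Flox. All mice had a mixed background of C57BL/6J, 129S6 and CD1. In the Dlx5/6-CIE transgene a Dlx5/6 enhancer, active in GABAergic precursors of the forebrain, drives Cre, so cells of other lineages keep both genes. Nothing in the labels ties replicates to separate animals, so p-values measure only the spread between these samples, which may be technical.

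The deposited scaled fragment counts summed to between 14632502 and 15400982 per library, a guide to depth rather than the depth itself, because of the scaling. The targeted genes followed the genotype labels: Sp8 read 32.0 and 26.7 FPKM in controls against 1.68 and 2.03 FPKM in DCKO, and Sp9 read 24.0 and 30.7 FPKM against 0.0674 and 0.236 FPKM. The bulb markers Tbx21, of mitral and tufted cells, and Th, of dopaminergic periglomerular cells, were both above 27 FPKM in each control. RNA of whole tissue cannot tell fewer cells of a type from less RNA per cell.

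GABA is made from glutamate in a single step by glutamate decarboxylase, which exists as GAD67 (Gad1), spread through the cell body, and GAD65 (Gad2), held mainly at terminals. The vesicular transporter VGAT (Slc32a1) loads GABA, and glycine, into synaptic vesicles. After release, GABA is cleared by plasma membrane transporters, among them GAT-3 (Slc6a11) of astrocytes, and GAT-2 (Slc6a13), which in brain is best known from the leptomeninges. Mitochondria then break it down in succession, by GABA transaminase (Abat) to succinic semialdehyde and by succinic semialdehyde dehydrogenase (Aldh5a1) to succinate. In the bulb, granule and periglomerular cells are the GABAergic interneurons, and they release GABA largely onto mitral and tufted cells.

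The start regions of the synthesis, loading and astrocytic uptake genes are shown because they include the members that fell most and least. This choice used the measured changes. RefSeq (GRCm38.p6) windows of 300 bases, 250 before and 50 after a start, were matched for 6 of 7 members by symbol: Gad1, Gad2, Slc32a1, Slc6a11, Slc6a13 and Aldh5a1. Each was searched on both strands for GGGCGG, the GC box bound by Sp family factors, and for the homeodomain core TAATTA. Only bases that no GENCODE exon of the gene itself covers are printed, 5′ to 3′ on the + strand, with GC boxes of either strand in capitals. The stretches are chr2:70561879-70562041 for Gad1, chr2:22622077-22622204 for Gad2, chr2:158610508-158610757 for Slc32a1, where exons of the gene Gm14204 also lie, and chr6:114130991-114131240 for Slc6a11. The Gad1 stretch lies inside the span of the annotated gene (chr2:70553072-70602014), not before it.
Gad1: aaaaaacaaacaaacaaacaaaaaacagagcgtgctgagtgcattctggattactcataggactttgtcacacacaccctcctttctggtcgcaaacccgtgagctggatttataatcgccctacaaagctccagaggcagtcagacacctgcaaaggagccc
Gad2: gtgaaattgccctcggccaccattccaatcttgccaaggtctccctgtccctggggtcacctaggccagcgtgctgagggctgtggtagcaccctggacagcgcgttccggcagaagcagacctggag
Slc32a1: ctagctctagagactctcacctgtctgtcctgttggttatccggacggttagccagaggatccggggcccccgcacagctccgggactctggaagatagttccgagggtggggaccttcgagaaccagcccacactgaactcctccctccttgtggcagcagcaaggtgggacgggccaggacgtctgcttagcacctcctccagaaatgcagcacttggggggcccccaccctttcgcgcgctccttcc
Slc6a11: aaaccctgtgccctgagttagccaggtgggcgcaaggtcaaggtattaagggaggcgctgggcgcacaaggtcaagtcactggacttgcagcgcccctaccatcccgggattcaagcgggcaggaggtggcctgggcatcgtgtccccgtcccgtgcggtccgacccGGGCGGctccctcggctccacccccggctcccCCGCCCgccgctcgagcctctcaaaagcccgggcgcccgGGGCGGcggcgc

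Slc6a11, the gene of these that fell least, held 3 GC boxes in the printed stretch and 4 in its whole window. Gad1 held 1, which began at position -8 from the RefSeq start, past the end of the printed stretch. The first of the 3 windows of Slc6a13 held 2, and the other 2 windows held 0. Gad2 and Slc32a1 held 0, as did Aldh5a1, which fell 1.29-fold against 1.25-fold for Slc6a11. Of all 32851 RefSeq windows, 35.7% held at least 1 GC box and 10.7% held 3 or more. TAATTA was in none of the members' windows and in 5.3% of all windows. These matches describe letters only.

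In DCKO bulbs the neuronal genes of GABA synthesis and loading were far lower, the genes of breakdown and of astrocytic uptake were lower by less, and the meningeal transporter gene was higher. Mean levels fell 8.14-fold for Slc32a1, 6.71-fold for Gad1, 2.57-fold for Gad2, 1.71-fold for Abat, 1.29-fold for Aldh5a1 and 1.25-fold for Slc6a11, while Slc6a13 rose 2.09-fold. By limma on log2(FPKM + 1), two-sided, with a Benjamini-Hochberg adjusted p below 0.05, 6 of the 7 members were lower and 1 was higher. Over all 13434 tested genes, 14.3% were lower and 13.0% higher by the same rule. The count of lower members was 4 without control replicate 1 and 4 without control replicate 2, because the calls of Slc6a11 and Aldh5a1 were lost. By at least 1 on the log2 scale, 3 members fell (Gad1, Gad2 and Slc32a1) and 1 rose (Slc6a13), against 3.05% and 1.18% of all tested genes. The libraries of the 2 genotypes did not overlap for any of the 7 members, with 6 lower and 1 higher in DCKO. Of all tested genes 37.6% were separated in the lower direction and 33.9% in the higher, 71.5% in all, and 27.3% were called in either direction.

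**Figure D1:**
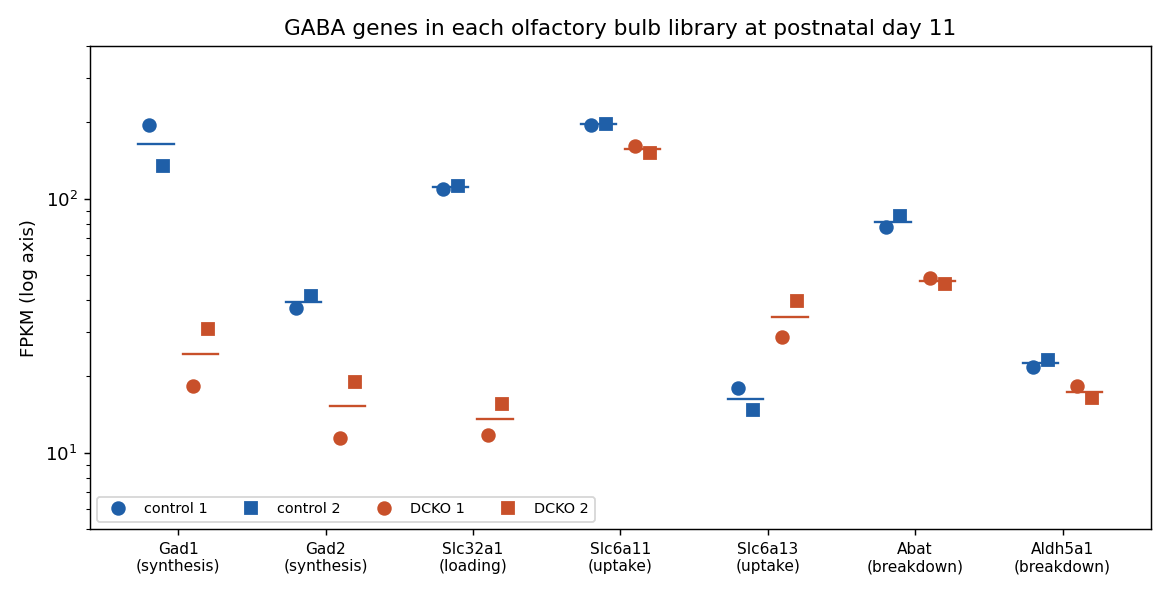
FPKM on a log axis of the 7 members in each library, with control replicates in blue, DCKO replicates in red and a bar at each group mean. Gad1, Gad2 and Slc32a1 of DCKO lie between 11.4 and 30.9 FPKM, below every control value of the same gene, and Slc6a13 is the 1 member whose DCKO libraries lie above the controls.

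Gad1 encodes the enzyme that makes most of the GABA in the brain. Its level was 195 and 135 FPKM in control replicates 1 and 2 and 18.3 and 30.9 FPKM in DCKO replicates 1 and 2. Both DCKO libraries lay far below both controls, at 14.9% of the control mean. The change on the log2 scale came to -2.72 ± 0.29 (SE), with a 95% interval of -3.48 to -1.96 and an adjusted p of 0.00622 by limma, and only 52 tested genes had a more negative one. Gad1 varied within each genotype more than most genes did: among the 9616 genes averaging 5 FPKM or more, 1.78% differed more between the controls and 1.23% differed more between the DCKO libraries. Other members varied too: 1.36% of these genes differed more than Gad2 in DCKO. For Slc6a13 the shares were 7.25% in controls and 4.69% in DCKO. Gad1 lies at chr2:70553072-70602014 on the + strand (GRCm38), and the floxed Sp9 gene lies 2.67 Mb away on the same chromosome. The antisense gene Gad1os overlaps it, and without a stated strand setting their reads cannot be told apart.

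Gad2, the terminal isoform of the enzyme, read 37.1 and 41.5 FPKM in control replicates 1 and 2, against 11.4 and 19.1 FPKM in DCKO replicates 1 and 2. Both DCKO libraries were lower, and DCKO replicate 1 was the lowest for Gad1, Gad2 and Slc32a1 alike. The change on the log2 scale of Gad2 came to -1.35 ± 0.24 (SE), with a 95% interval of -1.96 to -0.74 and an adjusted p of 0.0181 by limma, and the mean fell to 38.9% of that in controls. Without DCKO replicate 1 the change was -1.001, and without DCKO replicate 2 it was -1.69. The gene lies at chr2:22622205-22693874 on the + strand.

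Slc32a1 encodes the only known vesicular transporter of GABA. It read 110 and 112 FPKM in control replicates 1 and 2, against 11.7 and 15.5 FPKM in DCKO replicates 1 and 2. The controls were close to each other, and both DCKO libraries lay far below them, at 12.3% of the control mean. The change on the log2 scale came to -2.95 ± 0.13 (SE), with a 95% interval of -3.29 to -2.60 and an adjusted p of 0.000959 by limma, with 46 tested genes more negative. The gene lies at chr2:158610767-158615748 on the + strand, and the antisense gene Gm14205 overlaps it.

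The balance among the neuronal genes shifted within each library. Gad1 was 5.25 and 3.26 times Gad2 in the controls and 1.60 and 1.62 times Gad2 in DCKO, on the FPKM scale. Slc32a1 was 2.95 and 2.71 times Gad2 in the controls and 1.03 and 0.812 times in DCKO. For both ratios the genotypes did not overlap. In DCKO Slc32a1 was near the level of Gad2, and Gad1 stayed above both. The ratio of Slc32a1 to Gad1 overlapped between genotypes, at 0.562 and 0.832 in the controls and 0.643 and 0.502 in DCKO. An exact permutation test of 2 libraries against 2 cannot go below p = 0.333, so the ratios are given as values.

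**Figure D2:**
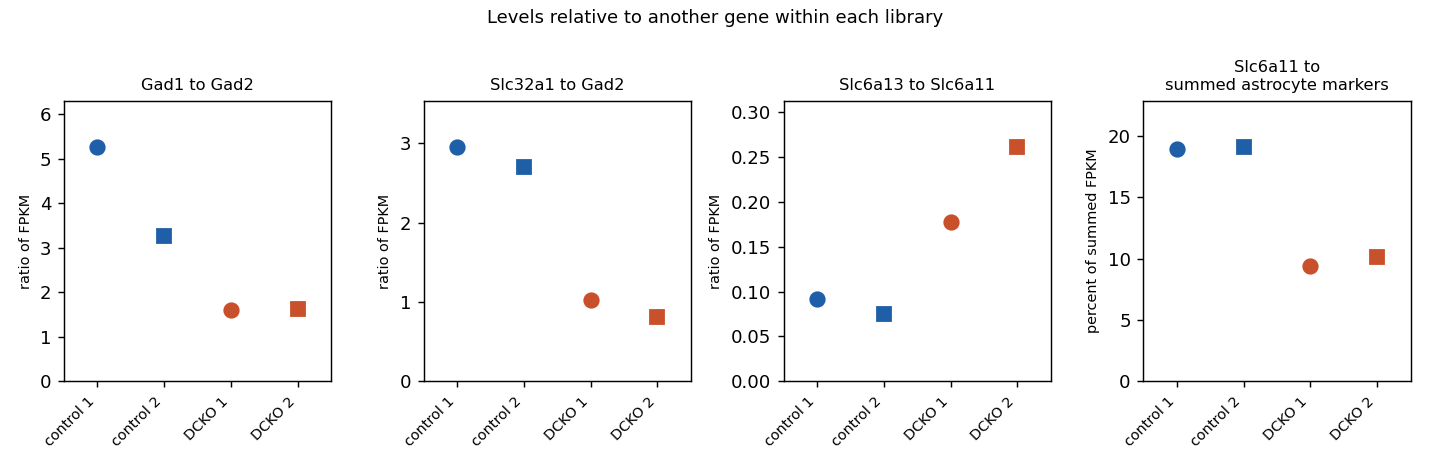
Ratios of FPKM within each library (blue: control, red: DCKO), and in the last panel the level of Slc6a11 as a percent of the summed level of 14 astrocyte markers. The ratio of Gad1 to Gad2 is at or below 1.62 in both DCKO libraries and at least 3.26 in both controls, and the share of Slc6a11 is 18.95 and 19.1 percent in controls against 9.37 and 10.1 percent in DCKO.

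Slc6a11, the astrocytic GAT-3 gene, had the highest level of the members in both genotypes. It read 196 and 197 FPKM in control replicates 1 and 2, against 162 and 152 FPKM in DCKO replicates 1 and 2, so both DCKO libraries were lower by a modest amount. The change on the log2 scale came to -0.32 ± 0.07 (SE), with a 95% interval of -0.50 to -0.14 and an adjusted p of 0.0301 by limma. Leaving out either control ended the call, with an adjusted p of 0.153 without control replicate 1 and 0.180 without control replicate 2. With upper quartile scaling the limma adjusted p was 0.0505, with no filter 0.0535 and with a replicate block 0.0701. The gene lies at chr6:114131241-114249952 on the + strand.

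The level of Slc6a11 went against that of most listed astrocyte markers. Of 14 astrocyte markers, 9 were higher, 0 lower and 5 not called in DCKO. Their median log2 change was 0.50, against -0.02 over all tested genes. Their summed level was 1032 to 1036 FPKM in controls and 1506 to 1732 FPKM in DCKO, and none was at 0 in any library. Slc6a11 was 18.95% and 19.1% of that sum in the 2 controls, against 9.37% and 10.1% in the DCKO libraries. The astrocytic glutamate transporter gene Slc1a3 rose from 224 and 229 to 320 and 319 FPKM (log2 change 0.49, limma adjusted p = 0.0099). Its call ended without control replicate 1 (adjusted p = 0.0729) or 2 (0.0676). The part of astrocyte number or state in these values was not tested.

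Slc6a13, the GAT-2 gene, was the 1 member that rose. It read 17.9 and 14.7 FPKM in control replicates 1 and 2, against 28.7 and 39.6 FPKM in DCKO replicates 1 and 2. Every DCKO library exceeded both controls, and the change on the log2 scale came to 1.01 ± 0.18 (SE), with a 95% interval of 0.55 to 1.47 and an adjusted p of 0.0188 by limma. Only 186 tested genes rose by more. Slc6a12, its neighbour on chromosome 6 and the gene of the betaine and GABA transporter, was chosen after its values were seen. It read 1.47 and 1.48 FPKM in control replicates 1 and 2, against 3.17 and 2.05 FPKM in DCKO replicates 1 and 2 and did not pass the test (limma adjusted p = 0.0908), though it did without DCKO replicate 2. Related carriers of other substrates were near equal in the genotypes by value. The taurine transporter gene Slc6a6 read 36.1 and 37.0 FPKM in controls and 37.0 and 33.01 FPKM in DCKO (log2 change -0.06, 95% interval -0.27 to 0.14), and the creatine transporter gene Slc6a8 read 28.0 and 30.9 FPKM against 29.5 and 26.96 FPKM (-0.06, 95% interval -0.28 to 0.16). Neither passed the limma test, and their libraries overlapped. Slc6a13 lies at chr6:121300227-121337733 on the + strand.

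Part of the markers of leptomeningeal cells and fibroblasts rose, as Slc6a13 did. Of 16 such markers 7 were higher and 0 lower in DCKO, with a median log2 change of 0.76, and none was at 0 in any library. Without control replicate 1 the count of higher markers was 14, without control replicate 2 it was 3, without DCKO replicate 1 it was 4, without DCKO replicate 2 it was 1, and with no filter it was 3. Their summed level was 986 to 1738 FPKM in controls and 2752 to 2777 FPKM in DCKO. Ptgds, a prostaglandin D synthase of meninges and other cells, made up most of this sum (1243 and 749 FPKM in controls, 2327 and 2196 in DCKO). Slc6a13 was 1.03% and 1.495% of the sum in the controls and 1.03% and 1.44% in DCKO, so these shares overlapped. A sum without Ptgds was chosen after the data were seen. It came to 495 and 237 FPKM in controls and 450 and 557 FPKM in DCKO, so the genotypes overlapped. The shares of Slc6a13 in this sum were 3.63% and 6.23% in controls, against 6.38% and 7.12% in the DCKO libraries. The part of meningeal tissue in the Slc6a13 result was not tested. Collagen genes of the list were high in control replicate 1, where Col1a1 stood at 121 FPKM against 17.6 in control replicate 2 and 27.3 and 39.6 in DCKO.

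Both breakdown genes were lower, Abat more clearly than Aldh5a1. Abat read 77.2 and 85.4 FPKM in control replicates 1 and 2, against 48.8 and 46.4 FPKM in DCKO replicates 1 and 2. Each genotype was tight, and DCKO held 58.5% of the control mean (log2 change -0.76 ± 0.08, SE, with a 95% interval of -0.96 to -0.56 and adjusted p = 0.00574 by limma). The gene lies at chr16:8513429-8621568 on the + strand. Relative to Gad1, the Abat level was 0.396 and 0.633 in the controls and 2.67 and 1.50 in DCKO, so the transaminase transcript changed from the less to the more abundant of the pair.

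Aldh5a1 read 21.7 and 23.3 FPKM in control replicates 1 and 2, against 18.4 and 16.5 FPKM in DCKO replicates 1 and 2. The groups did not overlap, and the change on the log2 scale came to -0.35 ± 0.09 (SE), with a 95% interval of -0.57 to -0.13 and an adjusted p of 0.0401 by limma. This call was lost under 9 of 14 alternatives, where the limma adjusted p ranged from 0.0567 to 0.186. Among them were the fits without control replicate 1 (0.0920), control replicate 2 (0.186) and DCKO replicate 2 (0.0793). Against Abat, Aldh5a1 was 0.282 and 0.272 in controls, against 0.378 and 0.355 in the DCKO libraries. The gene lies at chr13:24907579-24937661 on the - strand and overlaps 9330162012Rik on the + strand, which stood at 2.09 and 2.60 FPKM in controls and 1.90 and 1.54 in DCKO.

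**Figure D3:**
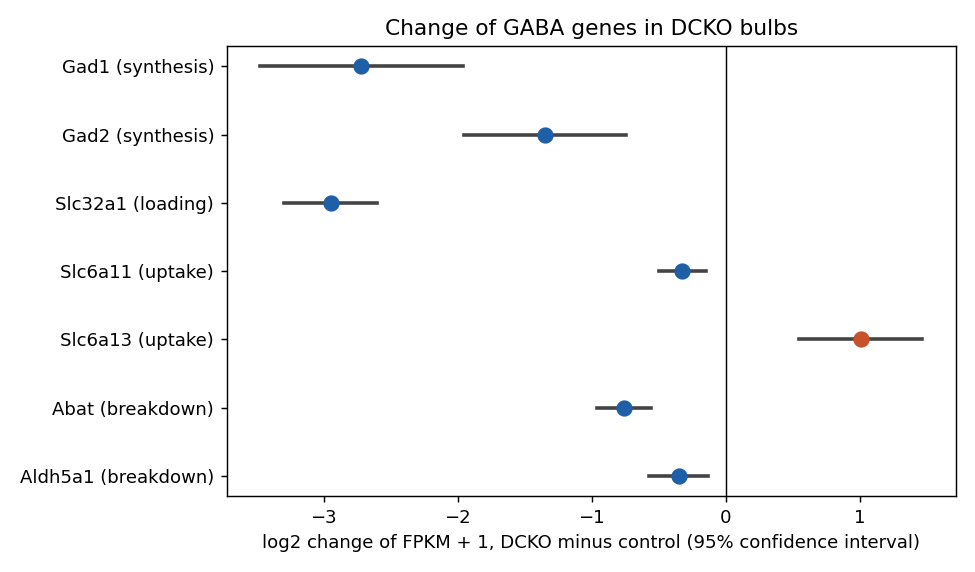
Log2 change of FPKM + 1, DCKO minus control, with its 95% confidence interval from limma, for the 7 members grouped by role. Gad1 (-2.72) and Slc32a1 (-2.95) lie farthest from 0, the intervals of Slc6a11 and Aldh5a1 end at -0.14 and -0.13, and Slc6a13 (1.01) is the 1 gene to the right of 0.

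The order of the members by level changed with the genotype. In controls the mean levels ran from Slc6a11 (197 FPKM) through Gad1 (165), Slc32a1 (111), Abat (81.3), Gad2 (39.3) and Aldh5a1 (22.5) to Slc6a13 (16.3). No neighbours in that order overlapped by library, and control replicate 1 had Gad1 at almost the level of Slc6a11. In DCKO the order was Slc6a11 (157 FPKM), Abat (47.6), Slc6a13 (34.2), Gad1 (24.6), Aldh5a1 (17.4), Gad2 (15.3) and Slc32a1 (13.6). From Slc6a13 down, each pair of neighbours overlapped between libraries.

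Genes around the pathway were read from lists set by general knowledge, but with earlier results of these data known. The counts stand beside 27.3% of all tested genes called in either direction. Synthesis draws on glutamate, which neurons take up or make from glutamine. Of 13 genes of glutamate and glutamine supply, 4 were lower and 4 higher, with a median log2 change of 0.09. Slc1a1, the neuronal glutamate transporter gene, fell from 24.2 and 26.2 FPKM to 12.7 and 13.2 FPKM (log2 change -0.91), and Got1, a cytosolic aspartate aminotransferase, fell from 84.3 and 90.0 to 53.6 and 54.4 FPKM (-0.68). Glul, the glutamine synthetase of astrocytes, rose from 349 and 357 to 695 and 612 FPKM (0.89). The limma adjusted p of these 3 genes ranged from 0.00315 to 0.00582. The count of lower genes was 2 without control replicate 1, control replicate 2 or DCKO replicate 1, and also 2 with no filter, upper quartile scaling, the scaled counts or the replicate block, and the count of higher genes was 1 without either control.

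Cofactor supply and vesicle energy genes were listed apart. Glutamate decarboxylase and GABA transaminase both need pyridoxal phosphate, and 2 of 5 genes of its supply were lower: Pdxk, the kinase that makes it (25.6 and 25.7 FPKM fell to 17.0 and 18.4 FPKM, a log2 change of -0.51, limma adjusted p = 0.0112), and Pdxp, its phosphatase (-0.46, adjusted p = 0.0108). The call of Pdxp ended without control replicate 1 (adjusted p = 0.0537). The summed level of the 5 genes was 127 to 136 FPKM in controls and 102 to 105 FPKM in DCKO, without overlap. Loading by VGAT is driven by the vesicular proton pump, of which 1 of 11 genes was lower and 0 higher. That gene was Atp6v1g2, a neuronal G subunit, with 113 and 121 FPKM in controls and 65.8 and 60.8 in DCKO (-0.88, limma adjusted p = 0.00372). The pump genes had a median log2 change of 0.01.

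The vesicular glutamate transporter genes went the other way from Slc32a1. Slc17a7 rose from 345 and 379 to 743 and 621 FPKM (log2 change 0.91, limma adjusted p = 0.00924) and Slc17a6 from 8.11 and 7.88 to 20.2 and 17.8 FPKM (1.15, adjusted p = 0.00277). Of 5 other vesicular transmitter transporters, 3 passed the filter, and 2 of these rose. Slc17a7 is a vesicular transporter gene of mitral and tufted cells. Of 10 markers of these cells 9 were tested, and 7 of them, Slc17a7 included, were higher and 0 lower. Without Slc17a7, a sum chosen after the data were seen, 6 of 8 tested were higher, and the summed level was 427 and 449.7 FPKM in controls and 904 and 850 FPKM in DCKO.

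Beyond Aldh5a1, succinic semialdehyde can be reduced, and the carbon joins the tricarboxylic acid cycle. Of 8 genes listed there, 2 were higher and 0 lower, or 25.0% called, near the 27.3% of all tested genes. At a filter of 5 FPKM, which Adhfe1 did not pass, 1 was higher. Under 5 alternatives of scaling, pseudocount or trend 1 was lower. Adhfe1, which oxidises gamma-hydroxybutyrate back to succinic semialdehyde, rose from 2.51 and 2.81 to 6.52 and 6.22 FPKM (log2 change 1.01, limma adjusted p = 0.00472), and Suclg2, a succinate-CoA ligase subunit, rose from 12.8 and 11.3 to 21.6 and 20.0 FPKM (0.74, adjusted p = 0.00806). GABA can also be formed from putrescine, and of 7 tested genes of that route 3 were higher and 0 lower. Sat1, an acetyltransferase of polyamines, rose from 36.1 and 32.1 to 62.0 and 57.6 FPKM (0.79, limma adjusted p = 0.00627). Aldh1a1 (log2 change 1.002, limma adjusted p = 0.0333) and Aldh9a1 (0.40, adjusted p = 0.0175), both aldehyde dehydrogenases, also rose. The Aldh1a1 call was lost without DCKO replicate 1 (log2 change 1.02, adjusted p = 0.110) or 2 (0.98, 0.108) and with no filter (adjusted p = 0.0761), and that of Aldh9a1 without control replicate 1 (0.0752) or 2 (0.110).

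**Figure D4:**
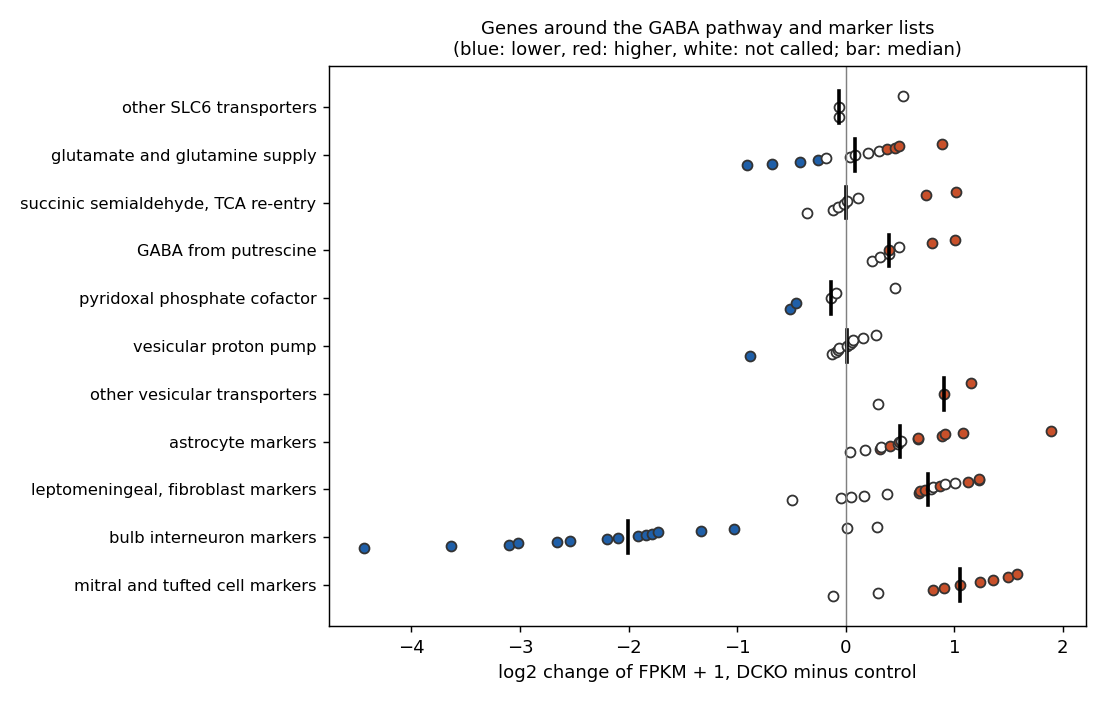
Log2 change of each tested gene (points) in the lists around the GABA pathway and in 4 marker lists, with a bar at each list's median; blue is lower, red is higher and white did not pass the limma test. The bulb interneuron markers lie mostly left of -1, and the astrocyte, mitral and tufted lists lie mostly right of 0.

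The 3 neuronal members fell beside the markers of their cells. Of 16 bulb interneuron markers, 14 were lower and 0 higher, with a median log2 change of -2.01. Their summed level was 1252 to 1303 FPKM in controls and 449 to 497 in DCKO. The mean of that sum in DCKO was 37.0% of the control mean, against 14.9% for Gad1, 12.3% for Slc32a1 and 38.9% for Gad2. Calb2, which did not pass the test, made up most of the DCKO sum. Without Calb2, a sum chosen after the data were seen and without a marker that had not fallen, the other 15 markers summed to 960 and 1008 FPKM in controls and 140 and 213 FPKM in DCKO, or 18.0% of the control mean. Which of the 3 members lay nearest to the markers thus depended on Calb2, and the differences between genes were not tested. The 10 pan-neuronal markers had 2 lower and 2 higher genes, with 1 lower without either control and 4 lower without DCKO replicate 2. Their summed level overlapped between genotypes, at 2147 to 2229 FPKM in controls and 2139 to 2309 in DCKO.

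The other marker lists bear on what else the tissue held. Of 9 microglia markers 7 were higher (summed level 123 to 125 FPKM in controls, 191 to 204 in DCKO), or 4 without control replicate 2. Of 11 oligodendrocyte lineage markers 0 passed the limma test in either direction, and 1 had an unadjusted p below 0.05. Without DCKO replicate 1, 1 was lower, and without DCKO replicate 2, 1 was higher. Of 10 endothelial and mural markers 4 were higher, or 1 without either control and 2 without DCKO replicate 2, with no filter or with the replicate block. Of 8 ependymal and choroid plexus markers 3 passed the filter and 0 were called, with 1 below an unadjusted p of 0.05 by limma and 1 higher with no filter or with the replicate block. None of these markers was at 0 in any library, and their part in the members' values was not tested.

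For each member the search covered 9224 genes averaging 5 FPKM or more, with clone, predicted and numeric symbols left out. Genes most like it were found by the distance between the 4 library values of log2(FPKM + 1), each centred on its own mean. For Slc32a1 they were Gabra5, a GABA-A receptor subunit (distance 0.139), the homeobox gene Meis2 (0.147) and the synaptic vesicle gene Synpr (0.168). For Gad1 they were the activity-regulated factors Npas4 (0.344) and Fos (0.398), then Meis2 (0.484). Npas4, like Gad1, was higher in control replicate 1 (26.1 FPKM) than in replicate 2 (19.0) and lower in DCKO replicate 1 (2.55) than in replicate 2 (3.36). For Gad2 they were the BMP antagonist Nog (0.171), the MAP kinase phosphatase Dusp4 (0.186) and Tiam2 (0.197). Slc6a13 was nearest to the topoisomerase Top2a (0.094), B2m (0.143) and Tead2 (0.177). Abat was nearest to Fam222a, Taok3 and the neurexin Nrxn3 (0.0109 to 0.0365), Slc6a11 to Camk2g, Zdhhc8 and Dclk2 (0.0105 to 0.0189) and Aldh5a1 to Spon1, Slc25a12 and Nsg2 (0.0046 to 0.0258). With 4 libraries in 2 genotypes, small distances are common, and no member was among another member's 3 nearest genes.

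**Figure D5:**
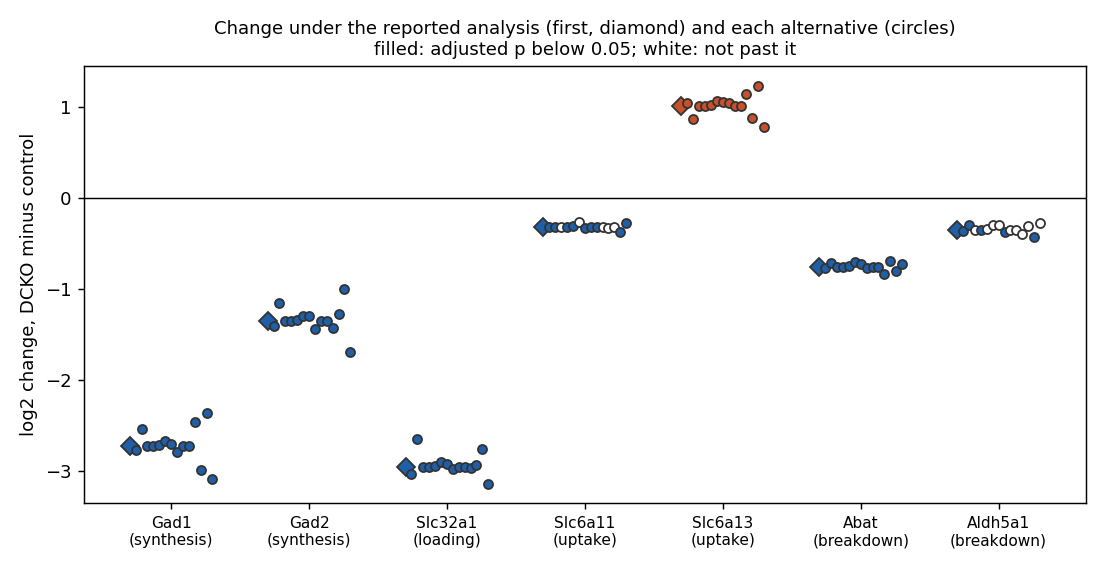
Log2 change of the 7 members in the reported analysis (diamond) and under each of 14 alternatives (circles); filled points passed an adjusted p of 0.05 and white points did not. No point crosses 0, and white points occur for Slc6a11 (5 of 14) and Aldh5a1 (9 of 14).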

How the data were processed

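The submitters' processing notes name TopHat, Cufflinks 2.1.1 and the build GRCm38.p4. Annotation, settings and strand: not given in the sources used here. Per the file headers, the authors made the FPKM values. The columns headed count are treated as a signal that the authors deposited after scaling, since low values are mostly multiples of a unit near 1 whose size depends on the library, so no count model was used. Columns were mapped by the codes in the sample descriptions, with 0 left unmapped.

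DCKO minus control was fitted over all 13434 genes by limma 3.58.1 (R 4.3.3) with an intensity trend, using log2(FPKM + 1) and a filter at a mean of 1 FPKM. This scale understates the change of low genes. Coordinates are from GENCODE M21 (GRCm38), promoters from RefSeq. A script written in Python drew sums, ratios and distances.

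The members and lists were chosen with earlier results of these data known. Genes were named by rule: the members, Sp8 and Sp9; up to 4 called genes of largest change per pathway list; and the 3 nearest genes of each member. Slc6a12, Ptgds, Col1a1, Calb2, Tbx21 and Th were named outside it, and 1 gene is not reported here. Alternatives covered pseudocounts of 0.1 and 5, no filter and a filter at 5, TMM, upper quartile and quantile scaling, the scaled counts, no trend, a replicate block and each library left out. Where 1 library of a genotype was left, it was assumed to vary like the other pair.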

Additional observations from a re-analysis of the deposited data

How the results depend on the processing

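Over 14 alternatives no member changed direction, and Gad1, Gad2, Slc32a1, Slc6a13 and Abat passed the limma test in each. For Gad2 and Slc6a13 the weakest of these calls lay just inside the threshold. The log2 change ranged from -3.08 to -2.36 for Gad1, from -1.69 to -1.001 for Gad2, from -3.13 to -2.64 for Slc32a1, from 0.78 to 1.23 for Slc6a13 and from -0.83 to -0.69 for Abat. Leaving out 1 library gave 4 to 6 lower members and 1 higher. Over all genes it gave 1030 to 1875 lower and 806 to 1384 higher, against 1926 and 1747 with all 4. With no filter, upper quartile scaling or the replicate block, 4 members were lower, and with TMM scaling, quantile normalization or no trend 5 were.

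The labels share only replicate numbers between genotypes, and same-numbered libraries did not deviate together (r = -0.0211 across genes). With the replicate block 1418 genes were lower and 1312 higher, and Slc6a11 (adjusted p = 0.0701) and Aldh5a1 (0.0710) lost their calls. The log2 ratio of Slc32a1 to Gad1, -0.27 with all libraries, was -0.55 to 0.017 with 1 left out, positive without control replicate 2. The log2 ratio of Slc6a13 to the leptomeningeal sum, -0.026, was 0.28 on scaled counts and -0.29 to 0.24 with 1 library left out, positive without control replicate 2 or DCKO replicate 1; the cause was not tested. Of 251 refits of 18 other named genes, 8 lost a call and 3 changed direction, all of genes that had not passed the test. The log2 change with 1 library left out was -0.144 to 0.0179 for Slc6a6, positive without DCKO replicate 2, and -0.129 to 0.0092 for Slc6a8, positive without control replicate 2 or DCKO replicate 2 (0.0026).

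The planned edgeR and DESeq2 tests were not run, since whole reads could not be recovered for every gene. TMM was computed without weights. With 2 libraries a genotype, small changes such as those of Slc6a11 and Aldh5a1 rest on few degrees of freedom.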
